A study of Homo sapiens with 6 samples.

Results

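Reelin (RELN), its lipoprotein receptors VLDLR and LRP8, the adaptor DAB1 and the receptor ligand clusterin (CLU) were followed in LA1-55n, a human neuroblastoma cell line. The 5 genes were taken by symbol, each through its brightest probe set by mean over the 6 arrays. A named probe set was found for 4 of them among 14779 measured genes; LRP8 was not analysed here. They were chosen by pathway with the difference of these same arrays between the groups already known, RELN and CLU among the largest, so their own values are a description and carry no test.

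Reelin is a large secreted glycoprotein that guides migrating neurons in the developing brain, where Cajal-Retzius cells and interneurons release it. It binds the receptors VLDLR and LRP8 (ApoER2), whose tails dock the adaptor DAB1. SRC family kinases then phosphorylate DAB1, which passes the signal to PI3 kinase, AKT and GSK3B and to the CRK and RAP1 adhesion pathway, and is itself marked for breakdown by a CUL5 ubiquitin ligase. Clusterin, also called apolipoprotein J, is a secreted chaperone that binds the same receptors.

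Affymetrix Human Gene 2.0 ST arrays measured total RNA of 6 cultures, 3 for each of 2 groups. One group carried a Tet-on hairpin against GFP (shGFP), the control, and the other a Tet-on hairpin against glycine decarboxylase (shGLDC99). Both received 0.5 µg/ml doxycycline for 7 days, so induction and drug were common to both. The labels name 1 hairpin against GLDC and 1 cell line. Whether each population was a clone or a pool is not given in the sources used here, nor is what separated replicates a, b and c beyond their being independent, so errors and p-values measure the spread between these arrays, which may be technical.

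Values are log2 intensities per probe set, and differences are shGLDC99 minus shGFP. No source states the log base. Log2 was inferred because the top value, 13.28, is above 11.09, the largest natural log that a 16-bit scanner reading can give. GLDC itself stood at 7.85, 7.90 and 7.81 in shGFP replicates a, b and c and at 5.98, 5.65 and 5.93 in shGLDC99, so that 24.9% of the control signal remained (log2 difference -2.00 ± 0.100 SE, limma adjusted p = 0.00101; exact two-sided permutation p = 0.1, the smallest that 3 against 3 arrays allow). Arrays correlated at 0.993 to 0.994 within groups and 0.988 to 0.990 between them. Markers of the adrenergic neuroblastoma identity were also read, and 16 were measured. Among those above the median gene level of 5.09 were the lineage factors GATA3 (9.65 in shGFP), HAND2 (7.98) and PHOX2A (7.30). The lineage factors HAND1 and TFAP2B lay below that level in shGFP, as did DBH (4.45) and STMN2 (2.78). Past the threshold, 4 of the 16 rose and 3 fell, which is 43.8% changed against 8.52% of all genes. The 8.52% was not matched to the signal level of the markers. Without the dimmest 40% of genes, 2221 of the remaining 8867 passed. ISL1 fell by 1.09, GATA2 by 0.56 and GATA3 by 0.48 (limma adjusted p = 0.00412, 0.0122 and 0.0161), and NCAM1 rose by 0.43, CHGB by 0.41, EYA1 by 0.29 and INSM1 by 0.26 (limma adjusted p = 0.0139, 0.0145, 0.0340 and 0.0491). With each array left out in turn, ISL1 kept its call in all 6 fits, GATA2 in 4, NCAM1 and CHGB in 2, GATA3 in 1, and EYA1 and INSM1 in 0. Each kept its direction (ISL1 -1.20 to -1.03, GATA2 -0.63 to -0.51, GATA3 -0.55 to -0.45, NCAM1 0.39 to 0.47, CHGB 0.37 to 0.43, EYA1 0.27 to 0.30 and INSM1 0.24 to 0.29). The size for ISL1 depended on the probe set kept: with its probe sets averaged, the difference was -0.71 (limma adjusted p = 0.00609).

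The start regions of RELN and VLDLR are shown because both genes were higher in shGLDC99 cells and because methylation of its CpG-rich promoter is a known control of RELN. CLU was also higher, but its start region was left out and not examined, so nothing is said of starts shared by the higher members. Each run holds the 250 bases before the start given by RefSeq (GRCh38.p14), read 5′ to 3′ on the gene's strand. RELN lies at chr7:103989659-103989908 on the minus strand and VLDLR at chr9:2621537-2621786 on the plus strand. Capitals mark the GC box GGGCGG, the core that SP1 binds, and the E-box CACGTG, which MYC and USF family proteins bind, on either strand.
RELN: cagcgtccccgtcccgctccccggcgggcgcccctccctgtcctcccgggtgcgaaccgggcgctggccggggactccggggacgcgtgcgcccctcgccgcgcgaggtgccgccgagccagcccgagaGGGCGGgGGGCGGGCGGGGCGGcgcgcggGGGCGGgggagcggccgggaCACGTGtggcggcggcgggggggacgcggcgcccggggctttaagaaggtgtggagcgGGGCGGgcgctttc
VLDLR: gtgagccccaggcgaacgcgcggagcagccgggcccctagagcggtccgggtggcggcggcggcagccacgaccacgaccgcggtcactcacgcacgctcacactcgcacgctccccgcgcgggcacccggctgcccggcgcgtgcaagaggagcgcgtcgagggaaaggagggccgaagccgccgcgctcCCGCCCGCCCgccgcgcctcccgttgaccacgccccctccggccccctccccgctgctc
The RELN run held 43 CpG dinucleotides and 83.2% G or C, and that of VLDLR 41 and 78.8%, against medians of 11 and 58.0% over 35116 windows of the same length. Fewer CpGs were counted in 99.0% of those windows than in RELN and in 98.3% than in VLDLR. GC boxes, some overlapping, began at 6 positions for RELN and at 2 for VLDLR, and 42.6% of all windows held at least 1. RELN had 1 E-box, with 66 bases between it and the start, and VLDLR had 0; 6.34% of windows held one. Neither run matched CCAAT (held by 32% of windows) or the cyclic AMP response element TGACGTCA (1.65%). DAB1 has 6 listed starts with 12 to 41 CpGs, of which 4 had a GC box and 1 an E-box, and its probe set does not tell them apart. These matches are letters in a window and not binding sites.

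RELN, the ligand, showed the largest difference upward of all genes measured. Its level (probe set 17061298, Entrez ID 5649) was 4.76, 4.35 and 4.61 in shGFP replicates a, b and c and 6.43, 6.54 and 6.38 in shGLDC99. Every shGLDC99 array lay at least 1.62 above every shGFP array, a gap wider than the 0.41 spanned by the shGFP arrays. The means were 4.57 ± 0.209 (SD, n = 3) and 6.45 ± 0.0812 (SD, n = 3), a log2 difference of 1.88 ± 0.115 (SE), or 3.68-fold. The shGFP level exceeded that of 42.1% of genes and the shGLDC99 level that of 71.2%. Probe sets differ in how brightly they bind, so these are ranks of signal and not of abundance. The shGFP level is not shown to exceed background, which leaves the size of the fold uncertain.

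CLU, the other ligand among the members, had the ninth largest upward difference. Its probe set (17075731, Entrez ID 1191), which the platform pairs with a noncoding transcript record of the gene, read 5.65, 5.99 and 5.65 in shGFP and 7.18, 7.10 and 6.94 in shGLDC99. The groups were 0.95 apart at their nearest arrays, with shGFP replicate b the highest of its group. The means were 5.76 ± 0.196 (SD, n = 3) and 7.07 ± 0.126 (SD, n = 3), so CLU was 1.31 ± 0.118 (SE) higher, or 2.48-fold.

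VLDLR, the receptor that was measured, was higher by a smaller amount. It read 6.98, 7.01 and 7.04 in shGFP and 7.60, 7.37 and 7.43 in shGLDC99 (probe set 17083197, Entrez ID 7436). The control arrays spanned only 0.05, and the lowest shGLDC99 array was 0.33 above the highest of them. Means of 7.01 ± 0.0268 (SD, n = 3) and 7.47 ± 0.121 (SD, n = 3) gave a log2 difference of 0.46 ± 0.0788 (SE), or 1.37-fold. In rank it was the 413th upward difference.

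DAB1, the adaptor on which the signal depends, was the member that was lower. It read 7.00, 7.09 and 7.29 in shGFP and 6.66, 6.70 and 6.67 in shGLDC99 (probe set 16687799, Entrez ID 1600). The shGLDC99 arrays lay within 0.05 of each other and 0.29 below the lowest control. Means of 7.12 ± 0.147 (SD, n = 3) and 6.68 ± 0.0235 (SD, n = 3) gave a difference of -0.45 ± 0.0870 (SE), or 73.3% of the shGFP signal. Ligands and receptor were thus higher and the adaptor lower in the same RNA.

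**Figure D1:**
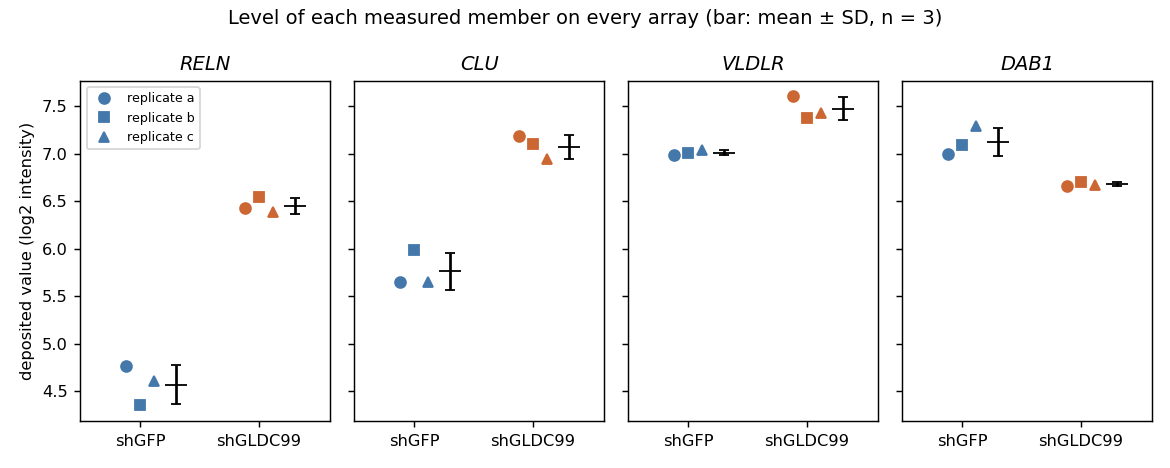
Log2 intensity of RELN, CLU, VLDLR and DAB1 on each of the 6 arrays, with circles, squares and triangles for replicates a, b and c and bars for the mean ± SD of 3 arrays. The shGLDC99 arrays (orange) lie above all shGFP arrays (blue) for RELN, CLU and VLDLR and below them for DAB1.

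The groups did not overlap for any of the 4 measured members, and for 30.8% of all genes (14.5% higher and 16.3% lower in shGLDC99). All 4 also passed an adjusted p of 0.05, as did 8.52% of all genes (3.72% as rises and 4.80% as falls). The choice of members used this contrast, so nothing is read from either count. The rule set no cutoff on size, and the differences ran from -0.45 to 1.88, with a median of 0.88, against a median of -0.01 over all genes. Over the alternative settings and with any 1 array left out, the difference stayed between 1.77 and 1.97 for RELN, 1.25 and 1.42 for CLU, 0.39 and 0.51 for VLDLR, and -0.51 and -0.37 for DAB1.

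**Figure D2:**
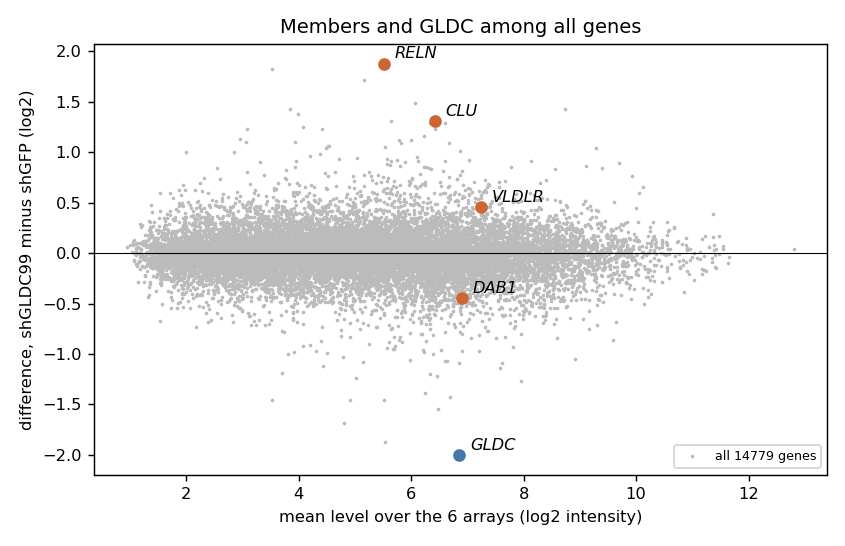
Difference between groups (log2, shGLDC99 minus shGFP) against mean level over the 6 arrays (log2 intensity) for all 14779 genes (grey), with the 4 measured members in orange and GLDC in blue. RELN is the highest point at 1.88 and GLDC the lowest at -2.00, while VLDLR and DAB1 lie 0.46 above and 0.45 below zero, within the spread of the grey points.

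The other genes of the pathway were taken from a list by role, and 49 of 86 were measured. Past the threshold were 6 genes, of which 1 rose and 5 fell (limma, Benjamini-Hochberg adjusted over all genes), which is 12.2% changed against 8.52% of all genes. The list's median difference was -0.04, and the groups did not overlap for 34.7% of it, against 30.8% of all genes. The count fell whichever array was left out: leaving out shGFP a, b or c left 2, 1 or 0 changed genes, and any shGLDC99 array 1. Calls over all genes fell too, from 1259 to between 461 and 546, with 1 array fewer in the fit.

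Among further ligands and partners of the receptors, 1 of 3 fell and 0 rose (0 also at an unadjusted p of 0.05). APOE, a lipid carrier of the same receptors, read 4.27, 4.28 and 4.52 in shGFP and 3.78, 3.90 and 4.05 in shGLDC99. It fell by 0.45 ± 0.104 (SE) with an adjusted p of 0.0482 in limma, so it was lower where CLU was higher. Both APOE levels lie below the median gene level, and the call was lost whichever array was left out. The chaperone LRPAP1, which escorts these receptors through the secretory pathway, differed by -0.16 (adjusted p = 0.412 in limma), and the matrix protein THBS1 by -0.05 (adjusted p = 0.724). FURIN, a proprotein convertase and the only listed reelin-cleaving enzyme measured, differed by 0.19 ± 0.0681 (SE) with non-overlapping groups (adjusted p = 0.147 in limma).

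Of 12 relatives of VLDLR and genes of receptor turnover, 3 fell and 0 rose (1 rose at an unadjusted p of 0.05). LRP1, a large endocytic receptor that also takes up APOE, read 5.86, 5.90 and 5.93 in shGFP and 5.53, 5.47 and 5.43 in shGLDC99. It fell by 0.42 ± 0.0622 (SE, limma adjusted p = 0.0123), a call that was lost without shGFP b (-0.45 to -0.40 over the arrays left out) or shGFP c. LRP4, the agrin receptor, fell by 0.41 ± 0.0818 (SE, limma adjusted p = 0.0308), and LRP6, a coreceptor for Wnt proteins, by 0.31 ± 0.0706 (SE, limma adjusted p = 0.0442). Neither LRP4 nor LRP6 stayed past the threshold with any 1 array left out, although their differences remained between -0.45 and -0.33 and between -0.36 and -0.27. These 3 receptors were lower where VLDLR was higher. MYLIP, the ligase that degrades VLDLR, differed by 0.01 (limma adjusted p = 0.960), and the sorting nexin SNX17, which recycles receptors of this family, by 0.28 (limma adjusted p = 0.152).

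Of 23 signalling genes below DAB1, 1 fell and 0 rose (5 higher and 2 lower at an unadjusted p of 0.05), with a median of 0.02. NDE1, a dynein regulator that binds the lissencephaly protein LIS1, read 7.37, 7.61 and 7.49 in shGFP and 7.03, 7.04 and 6.98 in shGLDC99. It fell by 0.47 ± 0.0786 (SE, limma adjusted p = 0.0182) and kept its call only without shGFP replicate a (range -0.53 to -0.41). Its paralogue NDEL1 was on the other side of zero, at 0.24 ± 0.0634 (SE, limma adjusted p = 0.0636), with groups that did not overlap. The microtubule proteins MAPT (0.30, limma adjusted p = 0.0517) and DCX (0.41, limma adjusted p = 0.116) and the kinase CDK5, which phosphorylates DAB1 and tau (0.25, limma adjusted p = 0.119), also had positive differences with no overlap. The kinases nearest the receptor gave 0.20 for SRC and -0.14 for YES1, and GSK3B gave 0.07, with limma adjusted p of 0.443, 0.398 and 0.674. CUL5 (-0.03, limma adjusted p = 0.828) and RNF7 (0.22, limma adjusted p = 0.111), parts of the ligase that degrades DAB1, and SOCS7 (-0.06, limma adjusted p = 0.674) did not pass either. FYN, CRK, CDK5R1 and PAFAH1B1 were not analysed here.

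Of 10 surface partners in migration and at synapses, 1 rose and 0 fell (2 fell at an unadjusted p of 0.05). APLP2, a relative of the amyloid precursor protein, read 9.61, 9.66 and 9.62 in shGFP and 9.95, 9.92 and 9.87 in shGLDC99. It rose by 0.28 ± 0.0599 (SE, limma adjusted p = 0.0365), and no fit with an array left out kept the call (0.26 to 0.30). APP itself gave 0.08 (limma adjusted p = 0.581) and APLP1 -0.31 (limma adjusted p = 0.0558). NECTIN3, an adhesion protein of the migration step, gave -0.46 ± 0.140 (SE, limma adjusted p = 0.0953) without overlap.

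**Figure D3:**
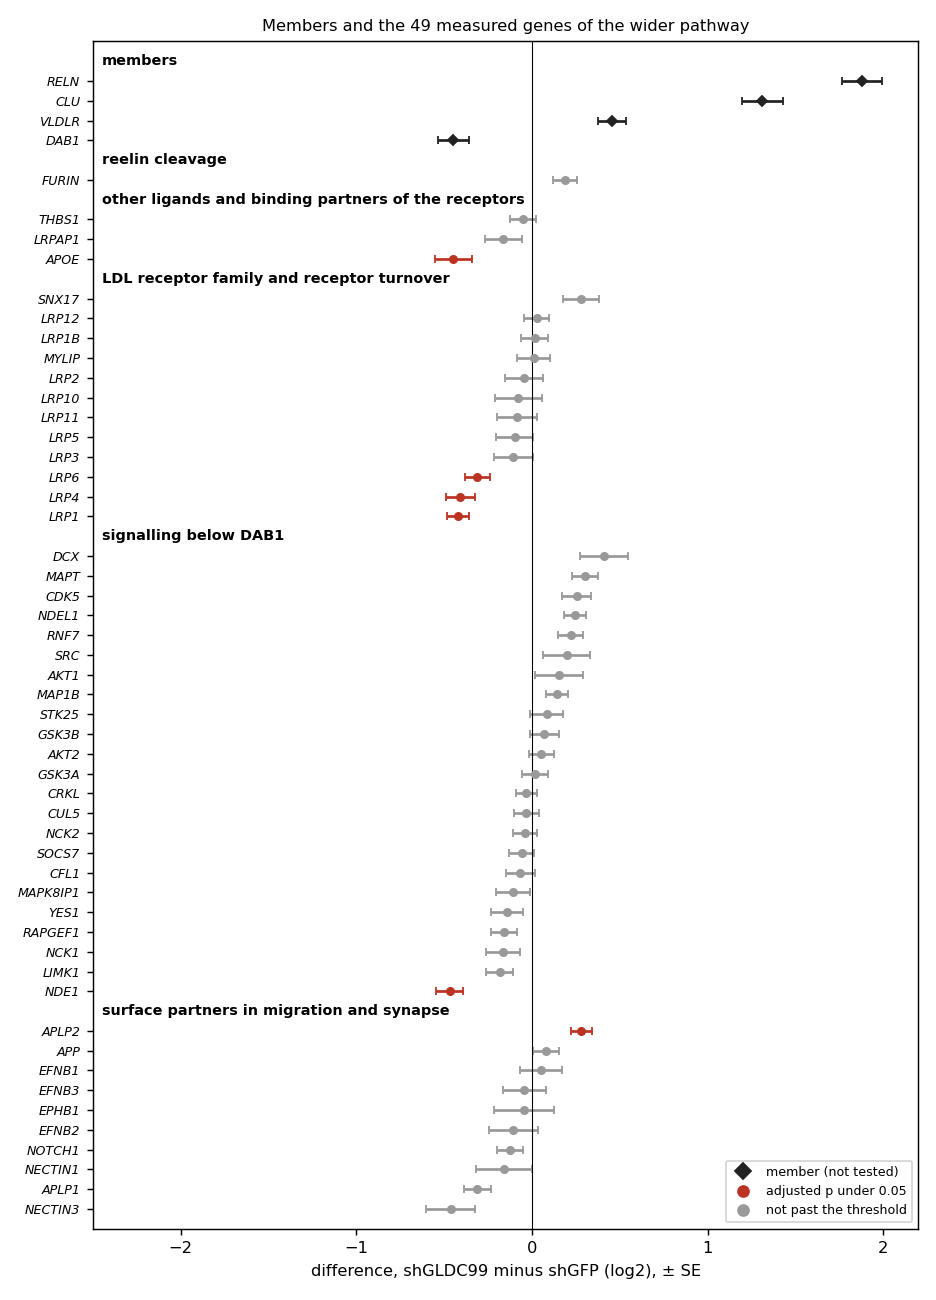
Differences between groups (log2, shGLDC99 minus shGFP, ± SE of the limma fit, 3 arrays a group) for the members (black diamonds) and the 49 measured genes of the wider pathway by role. The red points mark APLP2, which rose, and APOE, LRP1, LRP4, LRP6 and NDE1, which fell; all other pathway points lie between -0.46 and 0.41.

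Genes that act, or are proposed to act, on RELN transcription or on neuronal promoters were also listed, and 13 of 18 were measured. Past the threshold in limma, 4 fell and 0 rose (1 higher and 6 lower at an unadjusted p of 0.05). That is 30.8% changed against 8.52% of all genes. Without the dimmest 40% of genes, 6 of 12 regulators fell, and 2221 of 8867 genes changed. The fall of REST was known when the list was made, so nothing is read from these shares. REST, which silences neuronal genes outside neurons, read 6.87, 6.92 and 7.00 in shGFP and 5.68, 5.62 and 5.33 in shGLDC99, and fell by 1.39 ± 0.103 (SE, limma adjusted p = 0.00211).

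The other 3 that fell act on DNA methylation and histone acetylation. DNMT1, the maintenance methyltransferase, read 8.58, 8.62 and 8.58 in shGFP and 8.16, 8.11 and 8.11 in shGLDC99, and fell by 0.46 ± 0.0588 (SE, limma adjusted p = 0.00885). DNMT3B, a de novo methyltransferase, fell from 6.12 ± 0.0539 to 5.61 ± 0.142 (SD, n = 3; limma adjusted p = 0.0200). The deacetylase HDAC1 fell by 0.55 ± 0.0618 (SE, limma adjusted p = 0.00660), while HDAC2 gave -0.05 and DNMT3A 0.04 (limma adjusted p = 0.684 and 0.764). REST, DNMT1 and HDAC1 stayed past the threshold with each array left out; DNMT3B did so only without shGLDC99 b or c (-0.57 to -0.43 over the 6 fits). SP1 gave -0.26 (limma adjusted p = 0.0930) and the demethylase gene TET1 -0.19 (limma adjusted p = 0.109), both without overlap. DNA methylation was not measured.

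All 11 listed lipid carriers and extracellular chaperones besides CLU were measured, of which 2 fell and 0 rose (0 also at an unadjusted p of 0.05), or 18.2% against 8.52% of all genes, with a median of -0.07. Besides APOE, PLTP, a phospholipid transfer protein, fell by 0.34 ± 0.0630 (SE, limma adjusted p = 0.0250) from 9.47 in shGFP, a call lost with any 1 array left out (-0.37 to -0.31). The general protease inhibitor and chaperone A2M gave -0.07 (limma adjusted p = 0.695). The summed linear signal of the 11 genes, 822.1 to 880.0 in shGFP and 671 to 710.1 in shGLDC99, was mostly that of PLTP, and without it the sums were 142 to 149 and 125 to 143.

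Markers were also read of the neurons that secrete reelin in the brain. Of 9 Cajal-Retzius markers 1 rose and 0 fell, or 11.1% against 8.52% of all genes. At an unadjusted p of 0.05 in limma, 2 were higher and 1 lower. Of the 9, 7 had negative differences, and the median was -0.08. EBF3, a transcription factor of that lineage, read 6.98, 7.05 and 7.00 in shGFP and 7.71, 7.59 and 7.60 in shGLDC99, a rise of 0.63 ± 0.0654 (SE, limma adjusted p = 0.00551) that held with each array left out. TP73, the defining factor of Cajal-Retzius cells, gave -0.04 (5.89 in shGFP, limma adjusted p = 0.801), and CALB2 gave 0.23 (limma adjusted p = 0.184). The summed signal of the 9 markers was 260.1 to 296 in shGFP and 322 to 340.3 in shGLDC99, a difference that came from EBF3: without it the sums were 134 to 164 and 129 to 142.

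Of 8 interneuron markers 1 fell, DLX5 (-0.58 ± 0.0976 SE, limma adjusted p = 0.0184), and 0 rose (0 also at an unadjusted p of 0.05), or 12.5% against 8.52% of all genes. The DLX5 call was lost without shGFP a, shGFP b, shGLDC99 a or shGLDC99 c (-0.67 to -0.53). The summed signal was 376 to 384 in shGFP and 357 to 367 in shGLDC99. No marker is at 0 on this scale, whose lowest deposited value is 0.68.

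Few markers of glia, stroma, vessels and blood were measured: 0 of 5 Schwann and glial markers, 0 of 2 endothelial and 0 of 2 leukocyte markers passed (0, 0 and 1 at an unadjusted p of 0.05 in limma), and 1 of 3 fibroblast markers rose. That gene was LUM, at 0.52 ± 0.0768 (SE, limma adjusted p = 0.0125) from a shGFP level of 3.48, and it lost its call without shGFP b (range 0.46 to 0.56). The fibroblast sum was 64.6 to 68.9 in shGFP and 72.1 to 79.9 in shGLDC99. It was mostly that of THY1, which did not pass (0.14, limma adjusted p = 0.325). Without THY1 the sums were 13.9 to 14.9 and 18.4 to 20.5. The part of these genes in the differences of RELN and CLU was not tested. In bulk RNA, more cells that express a gene and more RNA per cell cannot be told apart.

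**Figure D4:**
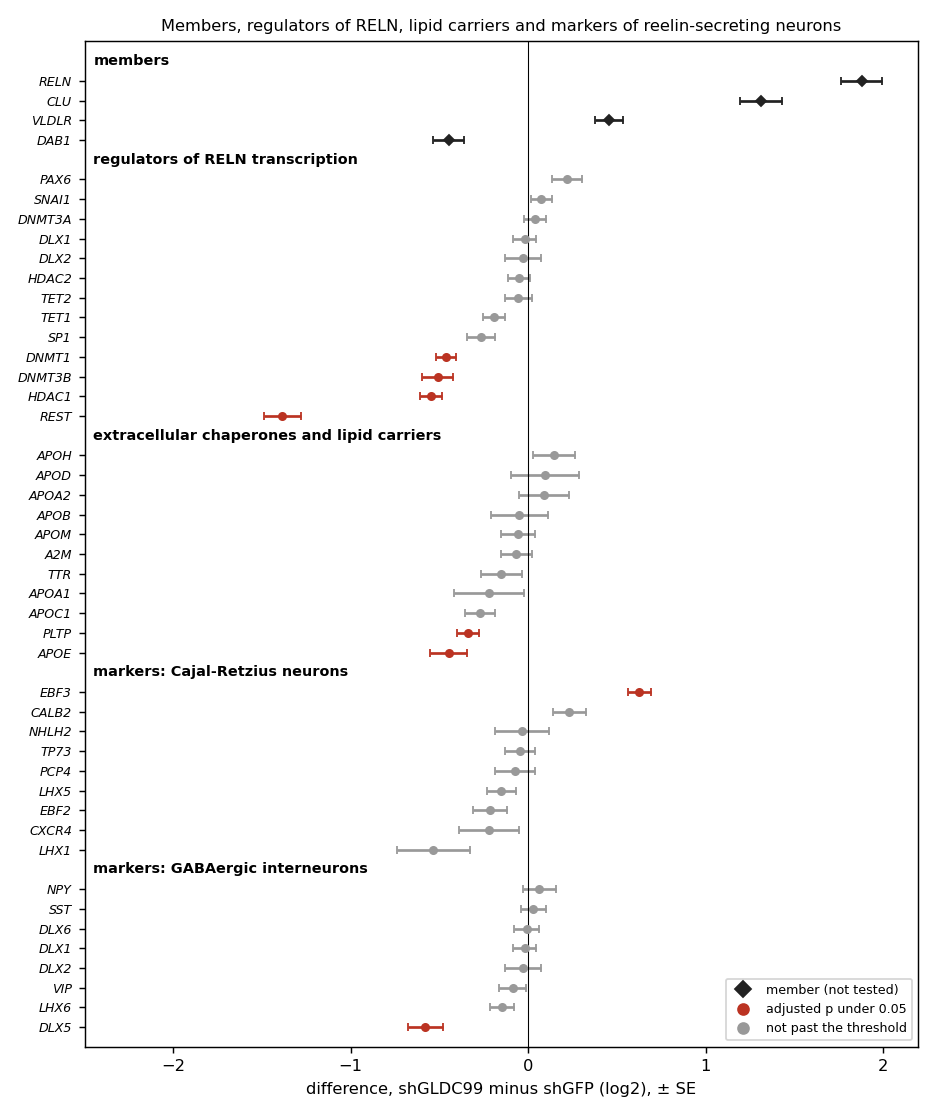
Differences between groups (log2, shGLDC99 minus shGFP, ± SE of the limma fit, 3 arrays a group) for the members (black diamonds) and 4 lists. REST, HDAC1, DNMT3B, DNMT1, APOE, PLTP and DLX5 fell and EBF3 rose (red), and the remaining points (grey) did not pass an adjusted p of 0.05.

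The measured genes next to each member on its chromosome were called at about the rate of all genes. The 3 nearest on each side, by the order of starts in the RefSeq table, gave 24 neighbours, of which 2 rose and 0 fell (7 at an unadjusted p of 0.05 in limma), or 8.33% against 8.52%. Around RELN, differences ran from -0.13 to 0.42 and 0 of 6 passed (2 at an unadjusted p of 0.05), with PMPCB, a mitochondrial processing peptidase subunit, at 0.09 and LINC01004, a noncoding RNA, at 0.42 (limma adjusted p = 0.457 and 0.0953). Around DAB1 they ran from -0.34 to 0.10 and 0 of 6 passed (1 at an unadjusted p of 0.05).

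VLDLR-AS1, the antisense RNA of VLDLR, was 1 of the neighbours that rose. It starts on the opposite strand 586 bases inside VLDLR. It read 4.26, 4.17 and 4.29 in shGFP and 4.59, 4.75 and 4.71 in shGLDC99, and rose by 0.44 ± 0.0725 (SE, limma adjusted p = 0.0167). That call held only without shGLDC99 replicate a (0.41 to 0.49 over the 6 fits). The overlap of these genes means that their signals may not be separate, since how strand was kept in the processing is not given in the sources used here. PUM3, on the other side of VLDLR, gave -0.03 (limma adjusted p = 0.868).

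Around CLU, STMN4, a microtubule regulator of neurites that is the farthest of the 3 on one side, rose by 1.05 ± 0.0862 (SE, limma adjusted p = 0.00286), from 4.87, 5.12 and 5.02 in shGFP to 6.11, 6.07 and 5.97 in shGLDC99. TRIM35 and the kinase gene PTK2B, which lie between STMN4 and CLU, both gave -0.07 (limma adjusted p = 0.575 and 0.624). The neighbours were looked up after the members' values were known.

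**Figure D5:**
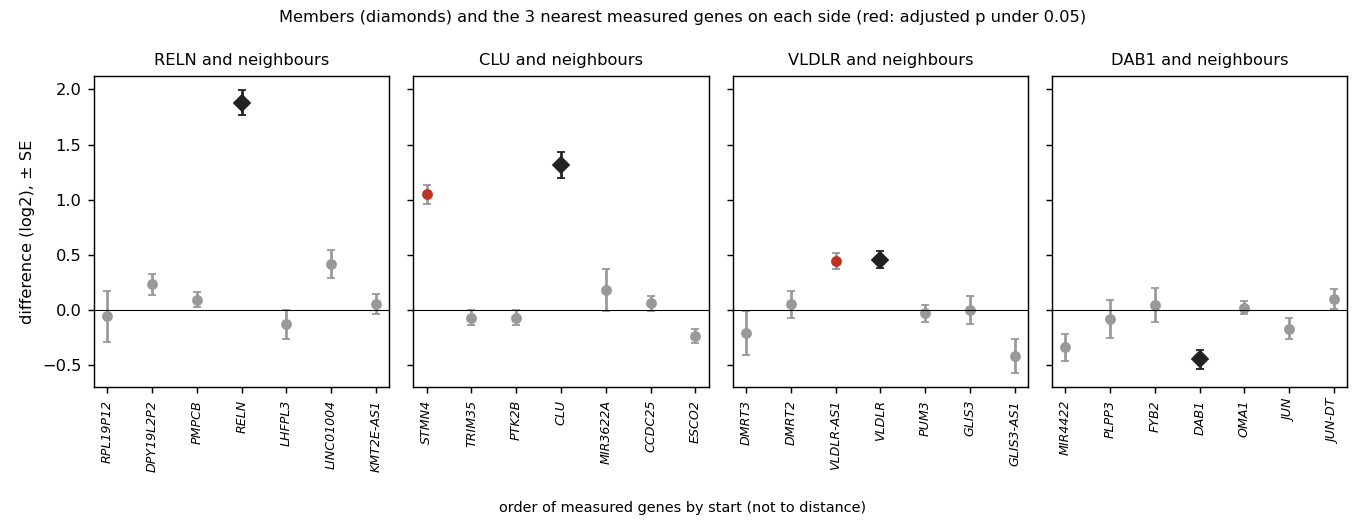
Differences between groups (log2, shGLDC99 minus shGFP, ± SE) for each member (black diamond) and its 3 nearest measured genes on each side, in chromosomal order and not to distance. The 2 red points, STMN4 at 1.05 and VLDLR-AS1 at 0.44, passed an adjusted p of 0.05, and the other 22 neighbours lie between -0.42 and 0.42.

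The genes with profiles most like those of RELN and CLU were taken by the smallest Euclidean distance between mean-centred log2 values over the 6 arrays. With 2 groups, such likeness mostly restates a similar difference between them, and it is given as a description. For RELN these were CCND2, a D-type cyclin (distance 0.37, Pearson r = 0.990), the phosphatase gene DUSP4 (0.61, r = 0.985), the noncoding RNA PURPL (0.61, r = 0.964), SCG2, a granin of dense-core vesicles (0.63, r = 0.991), and the probe set of MIR215 (0.70, r = 0.974). PURPL and MIR215 were dim, at 2.61 and 3.12 in shGFP.

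For CLU they were TSPYL6 (distance 0.16, Pearson r = 0.996), SCG2 (0.35, r = 0.981), STMN4 (0.37, r = 0.994), the calcineurin inhibitor RCAN2 (0.42, r = 0.967) and GPRIN3 (0.43, r = 0.966). SCG2 was on both lists, and STMN4 is also a chromosomal neighbour of CLU.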

How the data were processed

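RNA of 6 cultures was hybridised to Affymetrix Human Gene 2.0 ST arrays. The deposited values are log2 intensities per probe set (log base inferred). Partek was used, per the submitters' processing notes, with its version, background correction and normalization not stated in the sources used here. Medians of the arrays ran from 4.28 to 4.33, and nothing was renormalized. The number of arrays limits the precision.

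Of 31135 probe sets, 15098 had 1 gene symbol, giving 14779 genes, and all symbols matched RefSeq by Entrez ID. The other 16037 were not used. Those with no symbol and those with several were not counted apart. For 256 genes with several probe sets the one with the highest mean was kept. Groups were compared with limma 3.58.1 (lmFit, eBayes, no covariate) in R 4.3.3, with Benjamini-Hochberg adjustment over all genes. "Rose" and "fell" mean an adjusted p under 0.05. On simulated data (14779 genes, 200 changed) the fit recovered 42% of changes of 0.5 and 80% of changes of 1, with 5 false calls of 127. The noise was drawn independently for each gene, and 1259 genes were called in the data. These rates may therefore not hold for the real comparison.

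The members and lists were chosen with earlier results of these data known. Text names the members, GLDC, up to 8 listed genes per list that passed, neighbours, and the 5 nearest profiles; other listed genes and neighbours named with values were picked after these were seen. Promoter windows come from RefSeq (GRCh38.p14). Software also included the R package data.table, version 1.17.8, numpy 2.4.6, pandas 2.3.3, scipy 1.17.1 and matplotlib 3.10.9. Alternatives were quantile normalization again, median centring, leaving out the dimmest 40% of genes, averaging probe sets, the replicate letter as a block, a prior variance that follows intensity, and leaving out each array.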

Additional observations from a re-analysis of the deposited data

How the results depend on the processing

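The differences of RELN, CLU, VLDLR and DAB1 moved by less than 1 SD between replicates with quantile normalization again and median centring. Array medians ran from 4.28 to 4.33, so median centring could move them little. With 3 arrays a group, leaving out 1 array cannot move a difference by 1 such SD, so nothing is read from that comparison. GLDC kept its direction and its call under every alternative run. Only renormalization, median centring and leaving out an array could move the members' differences. Each member has 1 probe set, and the other alternatives leave a difference of group means unchanged. Of 14779 genes 1259 changed, but 2221 did without the dimmest 40% of genes, 2438 with a prior variance that follows intensity, 229 with the replicate block and 461 to 546 with 1 array left out. For the 49 pathway genes, 6 calls became 11 of 38, 13, 0 (12 at an unadjusted p of 0.05 in limma) and 0 to 2 in the same order. The 4 falls among regulators of RELN became 1 with the block, and 3 or 4 with 1 array left out. Fewer arrays or residual degrees of freedom enter the last 2 settings; for the others the cause was not tested.

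The replicate letters were not shown to pair the arrays: deviations of same-lettered arrays from their group means correlated at -0.012, 0.018 and -0.001. For 23 other named genes, 274 values under alternatives gave 176 calls kept, 98 lost and 0 reversals of direction, and 78 of the losses came with an array left out. LRP8 had no value. Background correction and slide could not be varied with these values.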
